A study of Mus musculus with 6 samples.

Results

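NRF2, encoded by Nfe2l2, is the transcription factor that turns on genes against oxidants and reactive chemicals. The genes described here are Nfe2l2, 8 genes known as its targets (Hmox1, Nqo1, Gclc, Gclm, Txnrd1, Srxn1, Gsr and Slc7a11) and Gstm1, a glutathione transferase gene, 10 in all. A gene was measured where an array row named it alone in the platform annotation, and where several rows did so, the brightest by 6-array mean was kept. This gave 9 of the 10 genes, among 30102 genes in all. The row for Gclm, the modifier subunit of glutamate-cysteine ligase, also names a predicted gene, so Gclm has no value here.

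Total RNA came from bone marrow-derived mast cells (BMMCs) of C57BL/6J mice, a primary culture matured for 6 weeks with interleukin 3 and a supernatant that holds stem cell factor. The activated group, 3 arrays, was kept in Tyrode's buffer with 1 µg/mL ionomycin, a calcium ionophore that makes mast cells release their granules, for 1 h, then washed and kept in culture medium for 3 h. RNA was therefore taken 4 h after ionomycin was added. The naive group, 3 arrays, went through the same steps in buffer without ionomycin, so buffer, washes and medium are common to both groups. The mice were not genetically modified, as far as the labels say, and the labels give neither age nor sex. The labels do not state that the 3 replicates of a group are separate cultures or animals, so the p-values rest on the spread among these arrays, and that may be technical. In RNA from a whole culture, a change in the RNA per cell and a change in the share of cells that hold it cannot be told apart.

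In resting cells the adaptor KEAP1 holds NRF2 and hands it to a ubiquitin ligase that has it destroyed. Oxidants and electrophiles react with KEAP1, and NRF2 then builds up, pairs with a small MAF protein and binds antioxidant response elements (AREs) in its target genes. Because this switch works on the protein, the level of Nfe2l2 mRNA need not change when the targets do. Hmox1 is also under the repressors BACH1 and BACH2, which compete for the same elements, and mast cells make oxidants of their own when they are activated.

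Values are log2 signals as the authors deposited them, and each row has its own brightness, so levels are set only against the same row in another array. The median signal of an array lay between 5.88 and 6.03, and was 0.07 higher on the log2 scale in ionomycin than in naive arrays. A background level of 6.04 was set from genes of chemosensory receptors, and all 9 measured genes had a 6-array mean above it. Of the mast cell markers, 12 of 13 were measured and all 12 were above background. Macrophage or monocyte markers were above background in 8 of 8 measured, with summed log2 levels of 11.18 to 12.17 in ionomycin and 11.01 to 12.07 in naive arrays. The 3 basophil markers summed to 12.37 in ionomycin replicate 1 and 12.38 in naive replicate 1, against 11.59 to 11.83 in the other 4 arrays. Summed mast cell markers were slightly lower after ionomycin without overlap, at 16.50 to 16.52 in ionomycin and 16.58 to 16.60 in naive arrays. Single mast cell markers went both ways. The log2 difference, ionomycin minus naive, was 1.04 for Hdc, -0.39 for Kit and -0.62 for Ms4a2. The sums of 5 other lists were higher without overlap: eosinophil (8.65 to 8.81 in ionomycin, 8.44 to 8.47 in naive arrays), dendritic cell (7.94 to 8.05, against 7.80 to 7.90), stroma (9.09 to 9.26, against 8.88 to 9.04), B cell (7.63 to 7.80, against 7.60 to 7.62) and erythroid (7.08 to 7.14, against 6.94 to 7.05). Above background were 3 of 5 measured eosinophil, 1 of 5 dendritic cell and 3 of 3 stroma markers. For the B cell list it was 2 of 3 and for the erythroid list 1 of 2. Rows below background thus add to all of these sums but that of stroma. Of all single genes, 18.9% were higher without overlap, and the array median was itself 0.07 higher in ionomycin arrays. The part of the shifts in marker sums in the results was not tested, and no single gene of the 11 marker lists passed the test described next. Replicate 1 differed from replicates 2 and 3 in both groups: on the first principal component, 53.1% of the variance, its arrays lay at 21.8 (ionomycin) and 47.6 (naive), and the other 4 between -21.7 and -13.5.

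Ionomycin was compared with naive by limma over all 30102 genes, with Benjamini-Hochberg adjustment and a threshold of 0.05. Of these genes 87 were higher and 18 lower after ionomycin, which is 0.289% and 0.0598% of those tested. Centring every array on its median made that split 69 higher and 32 lower, and the replicate number as a block made it 119 higher and 33 lower (0.395% and 0.110%). Of the 9 measured genes described here, 1 rose (Gstm1), 0 fell and 8 did not pass. With p unadjusted and under 0.05, 3 were higher (Gstm1, Txnrd1 and Srxn1) and 1 was lower (Gsr), where 10.2% and 5.44% of all genes were. The 9 log2 differences, ionomycin minus naive, ran from -0.42 to 1.27 with a median of 0.32, against a median of 0.05 over all genes. In 4 genes every ionomycin array was above every naive array, which held for 18.9% of all genes. In 1 gene, Gsr, every ionomycin array was below, which held for 7.31% of all genes.

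**Figure D1:**
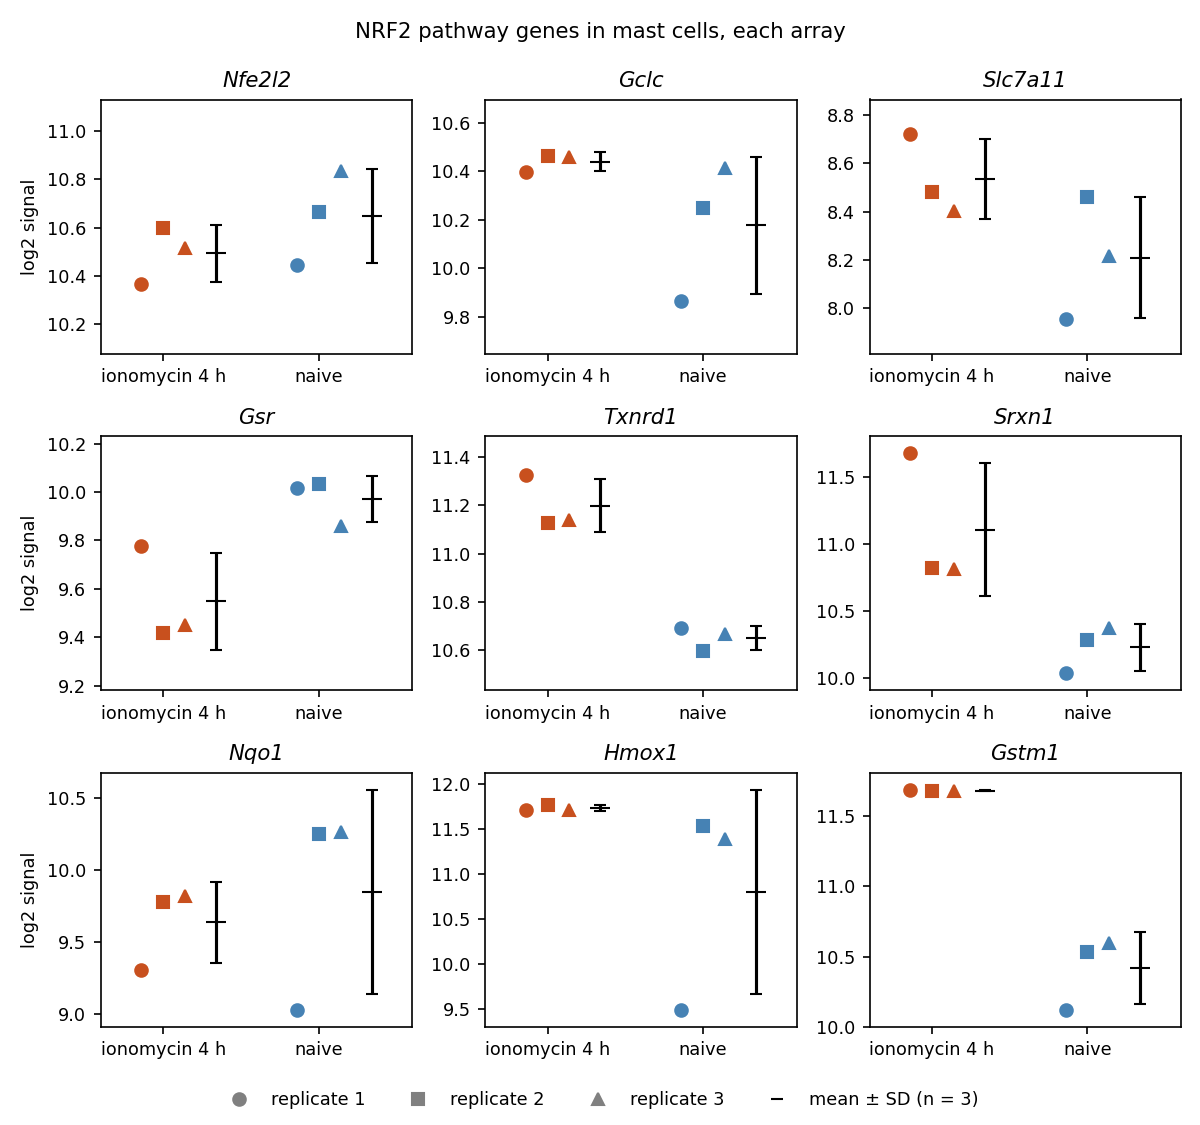
Log2 signal (vertical axis, a separate scale for each gene) of the 9 measured genes in the 3 ionomycin arrays (orange, left) and 3 naive arrays (blue, right), with the mean ± SD beside each group. The ionomycin arrays of Gstm1 lie between 11.68 and 11.69 and its naive arrays between 10.12 and 10.60, while for Hmox1 naive replicate 1 lies far below the other 5 arrays.

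Gstm1 encodes a mu class glutathione transferase, an enzyme that couples glutathione to reactive molecules. It was at 11.69, 11.68 and 11.68 in ionomycin replicates 1, 2 and 3, against 10.12, 10.53 and 10.60 in naive replicates 1, 2 and 3 (log2 signal). The ionomycin arrays were nearly equal, the naive arrays were spread over a wider range, and the groups did not overlap. Gstm1 averaged 11.69 ± 0.01 in ionomycin and 10.42 ± 0.26 in naive arrays (SD, n = 3 each), which is 2.41-fold higher (1.27 ± 0.13 SE on the log2 scale, limma adjusted p = 0.0277). It was higher at all 3 replicate numbers, by 1.57, 1.15 and 1.08. Without the replicate 1 array of both groups, a setting chosen after seeing the data, the difference was 1.11 ± 0.06 (limma adjusted p = 0.00235).

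With a single array left out, the size of the Gstm1 difference stayed between 1.12 and 1.36, but the call did not hold in 5 of the 6 fits. Limma's adjusted p was 0.0827, 0.181 and 0.158 without ionomycin replicates 1, 2 and 3, and 0.121 and 0.0904 without naive replicates 2 and 3. Without naive replicate 1, the lowest of the naive arrays, it was 0.00623. The 3 genes whose signal over the 6 arrays was most like that of Gstm1, among 13691 named genes above background, were Hspa1a (Pearson's r = 0.999), Gpr174 (0.998) and Stard10 (0.998). Hspa1a, whose row may also pick up its near-identical copy Hspa1b, encodes an inducible HSP70 chaperone, Gpr174 a G protein-coupled receptor and Stard10 a lipid transfer protein. These correlations describe 6 points that share the treatment and the arrays.

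The other mu class genes lie beside Gstm1 on chromosome 3, in the RefSeq order Gstm5, Gstm7, Gstm6, Gstm3, Gstm2, Gstm1, Gstm4, and resemble it in sequence, so an array row may pick up transcripts of a neighbour. Gstm3 was at 7.37, 7.53 and 7.61 in ionomycin replicates 1, 2 and 3, against 6.52, 6.65 and 6.89 in naive replicates 1, 2 and 3, with no overlap. Its log2 difference of 0.82 ± 0.12 SE missed the threshold (limma adjusted p = 0.0626) and passed with the replicate number as a block (0.0330). It also passed with quantile normalization (limma adjusted p = 0.0479), centring (0.0481), array weights (0.00343) and without both replicate 1 arrays (0.0206), and in none of the 6 fits without 1 array (0.0747 to 0.297). Gstm2 differed by 0.40 ± 0.06 (limma adjusted p = 0.0822), Gstm6 by 0.28 ± 0.06 (0.158) and Gstm7 by 0.25 ± 0.08 (0.257). All 3 had every ionomycin array above every naive array, as 18.9% of all genes had, and Gstm6 lay below background in both groups. Gstm5 (0.13 ± 0.13, limma adjusted p = 0.638) and Gstm4 (-0.04 ± 0.06, 0.735) overlapped between the groups, so the differences within the cluster ran from -0.04 to 1.27.

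**Figure D2:**
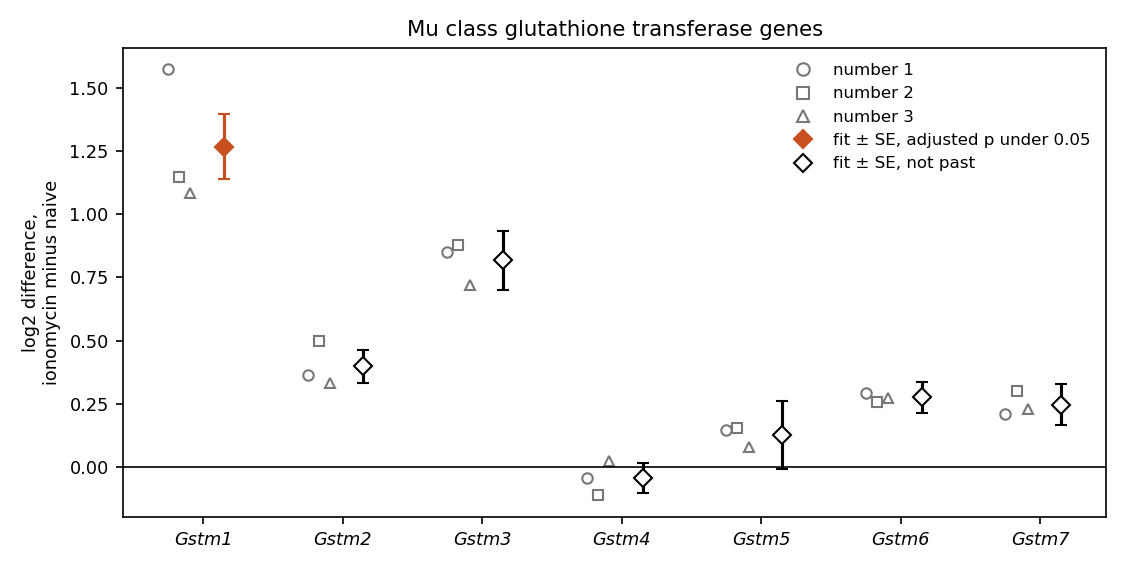
Log2 difference, ionomycin minus naive (vertical axis), of the 7 mu class transferase genes, as the difference at each replicate number (grey) and as the fitted difference ± SE (diamonds). Gstm1 alone is past the threshold in this fit, at 1.27, followed by Gstm3 at 0.82, and Gstm4 lies at -0.04.

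Among 24 other measured glutathione transferase genes, the mu class ones included, 1 rose, 0 fell and 23 did not pass. By the unadjusted p, 7 were higher and 1 lower, where 10.2% and 5.44% of all genes were. The gene that rose was Gstt1, of the theta class, at 7.58, 7.35 and 7.59 in ionomycin arrays, against 6.76, 6.81 and 6.82 in naive arrays (log2 difference 0.71 ± 0.08 SE, limma adjusted p = 0.0395). Its call was lost with the replicate block (adjusted p = 0.0557), with quantile normalization (0.0630), with centring (0.0608) and without any 1 of the 6 arrays. In those 6 fits the adjusted p was 0.101, 0.124 and 0.200 without ionomycin replicates 1, 2 and 3, and 0.0624, 0.205 and 0.129 without naive replicates 1, 2 and 3. Hpgds, the prostaglandin D synthase of mast cells, was at -0.09 ± 0.16 (limma adjusted p = 0.799). The median of the list was 0.08, against 0.05 over all genes.

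Txnrd1 and Srxn1 serve the thioredoxin branch of the defence. Txnrd1 encodes cytosolic thioredoxin reductase, which uses NADPH to recharge thioredoxin, and Srxn1 encodes sulfiredoxin, which repairs overoxidized peroxiredoxins. Txnrd1 was at 11.32, 11.13 and 11.14 in ionomycin replicates 1, 2 and 3, against 10.69, 10.60 and 10.67 in naive replicates 1, 2 and 3. The groups did not overlap and all 3 replicate numbers differed by a like amount, 0.63, 0.53 and 0.47. The 1.46-fold difference (log2 0.54 ± 0.07 SE) missed the threshold (limma adjusted p = 0.0593). It passed with quantile normalization (limma adjusted p = 0.0310), with array weights (0.00443) and without the replicate 1 arrays (0.0227), and with centring it was 0.121.

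Srxn1 was at 11.68, 10.82 and 10.81 in ionomycin replicates 1, 2 and 3, against 10.03, 10.28 and 10.37 in naive replicates 1, 2 and 3. Replicate 1 was the highest of the ionomycin arrays and the lowest of the naive ones, so the differences at numbers 1, 2 and 3 were 1.65, 0.54 and 0.44. The groups did not overlap, and the 1.84-fold difference (log2 0.88 ± 0.25 SE) did not pass (limma adjusted p = 0.221). Without the replicate 1 arrays the difference was smaller, 0.49 ± 0.06, and passed (limma adjusted p = 0.0264).

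RefSeq promoter windows, 250 bases before to 50 after a transcription start (GRCm38.p6), were found for 7 of the 10 genes and not for Hmox1, Gclc and Gsr. They were searched on both strands for the ARE core TGACNNNGC and the AP-1 site TGANTCA, which overlap where TGAC is followed by TCA. These 7 genes have 10 windows, since Txnrd1 and Gstm1 have several starts. The ARE core occurred in 4 of the 10 windows, against 12.4% of all 32851 windows, and the AP-1 site in 1 of the 10, that of Srxn1, against 7.81% of all windows. The 250 bases before the start are shown for Srxn1 (chr2:152105274-152105523, plus strand), for the Txnrd1 start with a match (chr10:82858956-82859205, plus strand) and for a start of Gstm1 (chr3:108017819-108018068, minus strand), the 3 genes higher without the replicate 1 arrays. Capitals mark motif matches.
Srxn1: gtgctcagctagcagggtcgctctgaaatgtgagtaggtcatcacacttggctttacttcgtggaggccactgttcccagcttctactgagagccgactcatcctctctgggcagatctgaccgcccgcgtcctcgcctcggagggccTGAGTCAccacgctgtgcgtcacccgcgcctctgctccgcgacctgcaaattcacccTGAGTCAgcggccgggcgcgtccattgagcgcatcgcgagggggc
Txnrd1: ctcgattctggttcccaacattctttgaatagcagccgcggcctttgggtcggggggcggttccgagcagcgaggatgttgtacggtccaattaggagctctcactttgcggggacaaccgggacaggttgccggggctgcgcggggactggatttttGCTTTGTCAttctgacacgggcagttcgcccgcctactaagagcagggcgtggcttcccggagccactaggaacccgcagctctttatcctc
Gstm1: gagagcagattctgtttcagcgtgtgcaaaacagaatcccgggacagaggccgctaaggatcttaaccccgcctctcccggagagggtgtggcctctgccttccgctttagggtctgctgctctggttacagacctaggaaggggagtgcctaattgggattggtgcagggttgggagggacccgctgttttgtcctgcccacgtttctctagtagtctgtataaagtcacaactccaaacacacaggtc
The Srxn1 stretch holds TGAGTCA at positions -102 and -45 from the start. Its ARE core match, TGACCTAGC on the opposite strand, begins at position 29 after the start and is not part of the stretch shown. Txnrd1 has TGACAAAGC on the opposite strand at -92, and its other 2 windows have no match. Neither Gstm1 window holds either motif, and a match or its absence here is a description of the letters only. In the windows not shown, Nfe2l2 has TGACTCCGC at -240 and Gclm has TGACGGTGC on the opposite strand at -134.

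**Figure D3:**
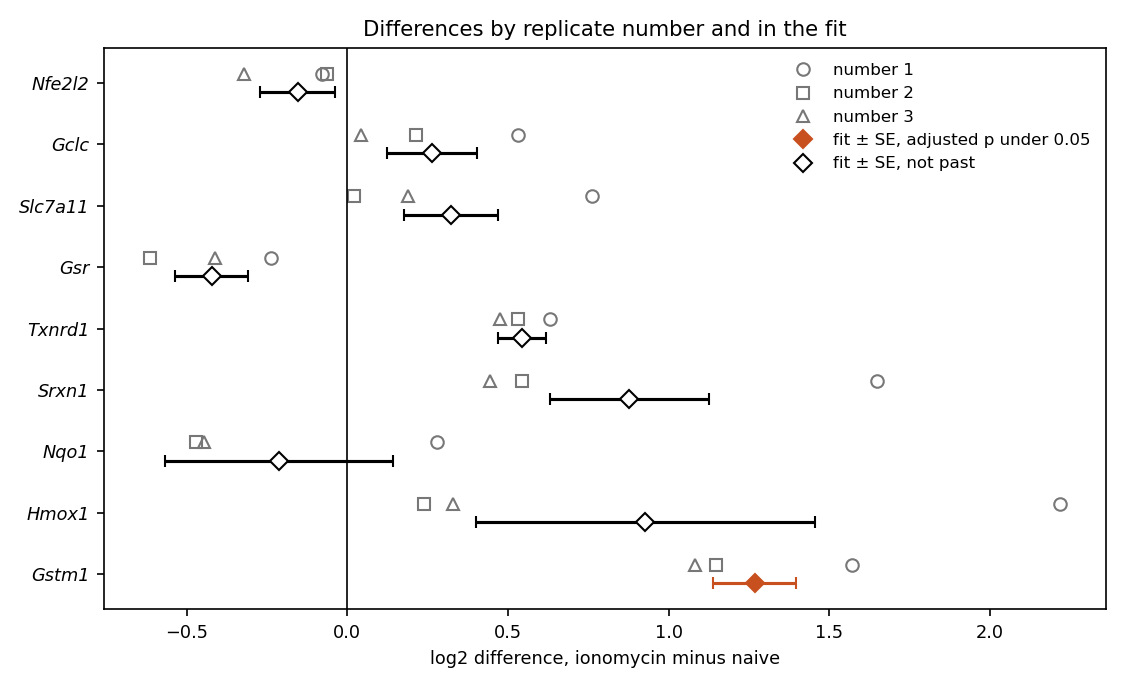
Log2 difference, ionomycin minus naive (horizontal axis), of the 9 measured genes at each replicate number (grey symbols) and in the fit over all arrays (diamonds, ± SE, orange where past the threshold). Replicate number 1 has the highest of the 3 differences in 8 of the 9 genes, and Hmox1 and Srxn1 show the widest gap between number 1 and the other numbers.

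Hmox1 encodes heme oxygenase 1, which breaks heme into biliverdin, iron and carbon monoxide. It was at 11.71, 11.76 and 11.71 in ionomycin replicates 1, 2 and 3, against 9.49, 11.53 and 11.38 in naive replicates 1, 2 and 3. The ionomycin arrays were close together and above all naive arrays, and naive replicate 1 alone was low. The mean difference was 0.93 ± 0.53 SE on the log2 scale (limma adjusted p = 0.403), made up of 2.22, 0.24 and 0.33 at numbers 1, 2 and 3. Without naive replicate 1 it was 0.27 ± 0.07 (limma adjusted p = 0.201), and without both replicate 1 arrays 0.28 ± 0.08 (0.123). Macrophages also express Hmox1, and the summed macrophage or monocyte markers were at 11.92, 12.17 and 11.18 in ionomycin replicates 1, 2 and 3, against 12.07, 11.90 and 11.01 in naive replicates 1, 2 and 3. Their part in the Hmox1 values was not tested.

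Nqo1 encodes a quinone reductase and is a common readout of NRF2 activity. It was at 9.31, 9.78 and 9.82 in ionomycin replicates 1, 2 and 3, against 9.03, 10.25 and 10.26 in naive replicates 1, 2 and 3. The replicate 1 array was the lowest of its group on both sides, and the groups overlapped. The direction differed by replicate number, 0.28 higher at number 1 and lower by 0.47 and 0.45 at numbers 2 and 3. Over all arrays the difference was -0.21 ± 0.36 SE (limma adjusted p = 0.772). Without both replicate 1 arrays it was -0.46 ± 0.06 and passed as lower (limma adjusted p = 0.0257), a direction opposite to that of Txnrd1, Srxn1 and Gstm1 in the same 4 arrays. Of the basophil markers, Mcpt8 and Prss34 were highest in replicate 1 of both groups. Cd200r3 was not, at 11.01, 11.01 and 11.06 in ionomycin replicates 1, 2 and 3, against 11.41, 11.32 and 11.22 in naive replicates 1, 2 and 3. The part of these markers in the Nqo1 values was not tested.

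Gclc, Slc7a11 and Gsr supply and recycle glutathione. Gclc, the catalytic subunit of the enzyme that starts its synthesis, was at 10.40, 10.46 and 10.46 in ionomycin replicates 1, 2 and 3, against 9.87, 10.25 and 10.42 in naive replicates 1, 2 and 3. The groups overlapped and the difference of 0.26 ± 0.14 SE did not pass (limma adjusted p = 0.380), nor without both replicate 1 arrays (0.13 ± 0.08, 0.367). Slc7a11, the cystine carrier xCT, was at 8.72, 8.48 and 8.40 in ionomycin arrays, against 7.96, 8.46 and 8.21 in naive arrays. These overlapped too, with a difference of 0.32 ± 0.15 SE (limma adjusted p = 0.337), which was 0.76 at number 1 and 0.02 and 0.19 at numbers 2 and 3. Its partner chain Slc3a2 differed by -0.05 ± 0.08 (limma adjusted p = 0.754).

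Gsr encodes glutathione reductase, which regenerates glutathione from its oxidized form. It was at 9.78, 9.42 and 9.45 in ionomycin replicates 1, 2 and 3, against 10.02, 10.03 and 9.86 in naive replicates 1, 2 and 3. All ionomycin arrays lay below all naive arrays, the reverse of Gstm1, Txnrd1, Srxn1 and Hmox1. The difference was -0.42 ± 0.11 SE, 1.34-fold lower, and did not pass (limma adjusted p = 0.211). It passed without both replicate 1 arrays (-0.51 ± 0.08, limma adjusted p = 0.0392) and with array weights (-0.54, 0.0123).

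Nfe2l2 itself was at 10.37, 10.60 and 10.51 in ionomycin replicates 1, 2 and 3, against 10.45, 10.66 and 10.84 in naive replicates 1, 2 and 3. The groups overlapped and the difference of -0.15 ± 0.12 SE did not pass (limma adjusted p = 0.514). By replicate number, 6 of the 9 genes were higher at all 3 numbers (35.8% of all genes were), 2 were lower at all 3 (16.8% of all genes), and Nqo1 was mixed. In 8 of the 9 the difference was highest at number 1, against 42.0% of all genes, and in 6 of the 9 naive replicate 1 was the lowest of all 6 arrays, as in 42.9% of all genes. With replicate 1 set against replicates 2 and 3 as a block (2 levels), 2 of the 9 were higher (Gstm1 and Txnrd1) and 1 lower (Gsr), where 2.25% and 2.47% of all genes were called. Counted without both replicate 1 arrays, 3 of the 9 were higher (Gstm1, Txnrd1 and Srxn1) and 2 lower (Gsr and Nqo1), where 1.41% and 1.43% of all genes were called.

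Of 11 measured genes that control the pathway, 0 rose, 1 fell and 10 did not pass. By the unadjusted p, 4 were higher and 2 lower, where 10.2% and 5.44% of all genes were. The gene that fell was Nfe2, which encodes p45, the founding relative of NRF2 in blood cells. Nfe2 is a gene of several blood lineages, the erythroid and megakaryocyte ones among them. It was at 7.03, 7.00 and 6.94 in ionomycin replicates 1, 2 and 3, against 7.87, 7.69 and 7.60 in naive replicates 1, 2 and 3, with no overlap (log2 difference -0.73 ± 0.08 SE, limma adjusted p = 0.0395). Its call was lost with centring (limma adjusted p = 0.0620), without ionomycin replicates 1 (0.0947), 2 (0.242) and 3 (0.211) and without naive replicates 2 (0.195) and 3 (0.0965). The 2 measured megakaryocyte markers summed to 11.65 to 11.71 in ionomycin and 11.58 to 11.85 in naive arrays. That sum comes mostly from Itga2b, with a mean of 11.60 in ionomycin and 11.66 in naive arrays. The dimmer Pf4 went the other way, with means of 7.67 and 7.40. The part of these markers in the Nfe2 values was not tested.

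None of the other control genes passed by limma. The repressor gene Bach2 was at 8.63, 8.99 and 9.0 in ionomycin arrays, against 7.49, 8.46 and 8.35 in naive arrays (0.77 ± 0.27 SE, limma adjusted p = 0.277), and Bach1 was at -0.21 ± 0.09 (0.329). Without both replicate 1 arrays Bach2 passed as higher (0.59, limma adjusted p = 0.0191) and Bach1 as lower (-0.36, 0.0488). Among the small MAF genes, Maff differed by 0.45 ± 0.13 (limma adjusted p = 0.220), Mafk by 0.15 ± 0.06 (0.303) and Mafg by -0.02 ± 0.07 (0.866). Keap1 was at -0.28 ± 0.10 (limma adjusted p = 0.293), with all ionomycin arrays below all naive ones, and its ligase scaffold Cul3 at -0.09 ± 0.11 (0.691). Sqstm1, the p62 adaptor that binds KEAP1, was at 0.17 ± 0.10 (limma adjusted p = 0.426), the related factor Nfe2l1 at 0.25 ± 0.08 (0.252) and Nfe2l3, below background, at 0.10 ± 0.07 (0.462).

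**Figure D4:**
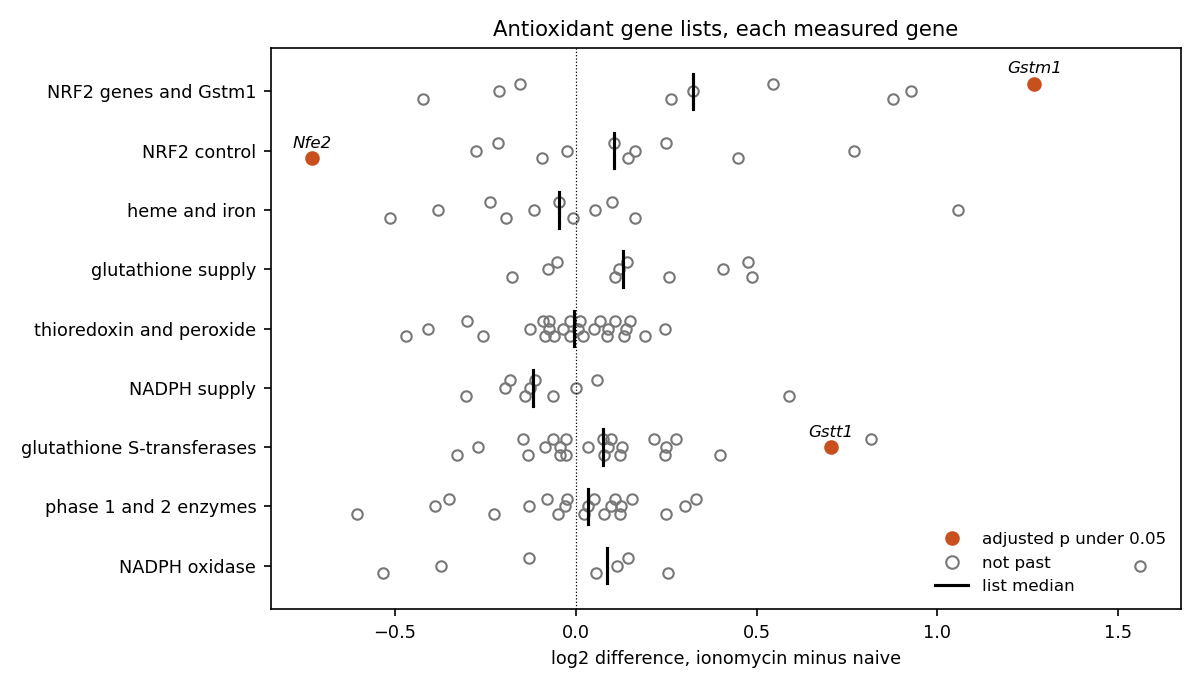
Log2 difference, ionomycin minus naive (horizontal axis), of every measured gene of the described set (top row) and of the 8 other antioxidant lists, 1 point a gene, with the list median as a bar. The 3 filled points are the calls, Gstm1, Nfe2 and Gstt1, and the medians of the 8 lists lie between -0.12 and 0.13.

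In the remaining antioxidant lists no gene passed by limma in either direction. Over all genes, 10.2% were higher and 5.44% lower by the unadjusted p, the shares to set beside each count below. Of 10 genes of glutathione supply, 0 passed, 2 were higher and 0 lower by the unadjusted p, and the median was 0.13. The 2 were Ggct, which breaks down gamma-glutamyl peptides (0.49 ± 0.07 SE, limma adjusted p = 0.0680), and Gss, glutathione synthetase (0.26 ± 0.05, 0.120), both named after their values were seen. The export pump Abcc1 was at -0.18 ± 0.09 (limma adjusted p = 0.384). Of 11 genes of heme and iron, 0 passed. By the unadjusted p, 1 was higher (Tfrc) and 3 were lower (Hmox2, Fech and Flvcr1), named after their values were seen. The ferritin chains Ftl1 and Fth1 were at 0.05 and -0.007 (limma adjusted p = 0.725 and 0.952). Ferritin is regulated mostly in translation, and Ftl1 turned to -0.013 after centring.

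Of 26 genes of thioredoxin and peroxide handling, 0 passed, 1 was higher and 2 were lower by the unadjusted p, with a median of -0.004. Txnip, the thioredoxin inhibitor, was at -0.47 ± 0.14 SE and Cat, catalase, at -0.30 ± 0.09, both with no overlap between the groups (limma adjusted p = 0.236 and 0.225). Txnip passed as lower without both replicate 1 arrays (-0.49, limma adjusted p = 0.0262). Of 10 genes of NADPH supply, 0 passed. By the unadjusted p, 1 was higher (Me1) and 1 was lower (Nadk), both named after their values were seen. Me1 was at 0.59 ± 0.17 SE and Nadk at -0.30 ± 0.10 (limma adjusted p = 0.232 and 0.269). The brightest of the list, Taldo1 and Pgd, were at -0.14 and -0.13 (limma adjusted p = 0.518 and 0.445). Of 21 phase 1 and 2 enzymes, 0 passed. By the unadjusted p, 0 were higher and 2 were lower (Cbr1 and Nqo2), named after their values were seen. The bright aldo-keto reductases Akr1c13 and Akr1a1 were at -0.13 and 0.02 (limma adjusted p = 0.346 and 0.883). Of 8 genes of the NADPH oxidases, which make superoxide, 0 passed. By the unadjusted p, 1 was higher (Nox1) and 2 were lower (Ncf1 and Ncf4). Ncf4, a phagocyte oxidase subunit gene named after its values were seen, was at -0.53 ± 0.08 SE (limma adjusted p = 0.0731). The subunit genes Rac2 and Ncf1 were at -0.13 and -0.37 (limma adjusted p = 0.322 and 0.138). Without both replicate 1 arrays Ncf1 (-0.47, limma adjusted p = 0.0264) and Ncf4 (-0.57, 0.0333) passed as lower. In that setting, chosen after seeing the data, 1.41% of all genes passed as higher and 1.43% as lower. Glutathione supply had 2 genes passing higher and 0 lower there, and heme and iron 1 and 0. Thioredoxin and peroxide handling had 0 and 1, and NADPH supply 0 and 0. The phase 1 and 2 enzymes had 0 and 2, and the oxidases 1 and 2.

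**Figure D5:**
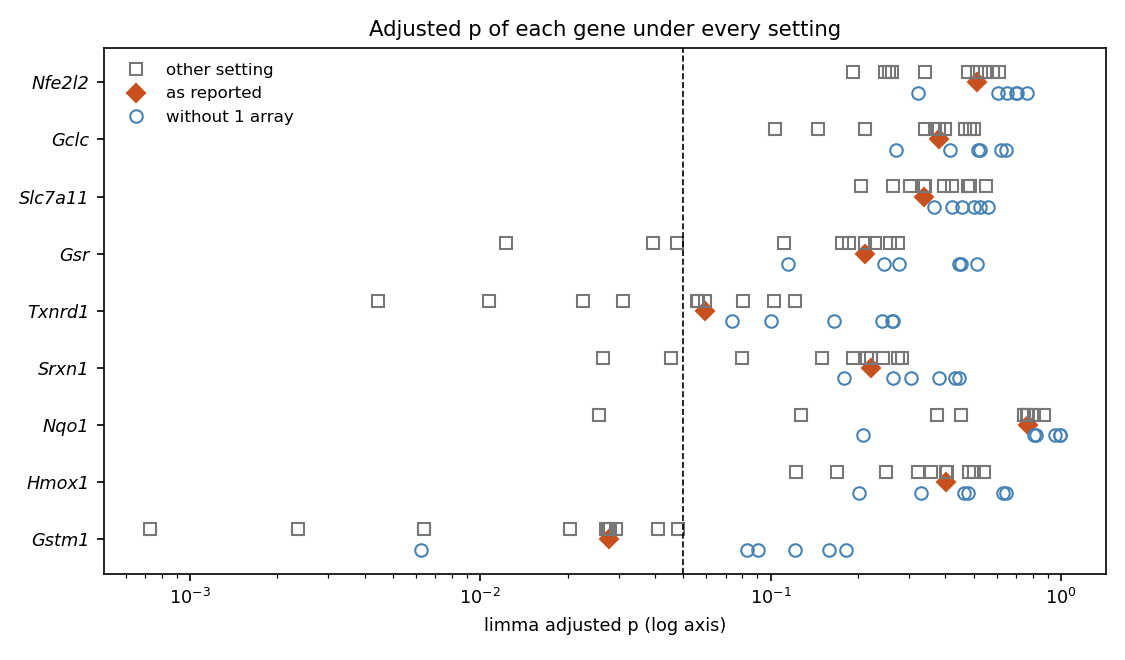
Limma adjusted p (horizontal log axis, dashed line at 0.05) of the 9 measured genes as reported (diamonds), with 1 array left out (circles) and under the other settings (squares). For Gstm1 10 of the 10 squares lie left of the line and 5 of the 6 circles right of it, and Hmox1, Gclc, Slc7a11 and Nfe2l2 have no point left of it.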

How the data were processed

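Total RNA of 6 BMMC samples, 3 after ionomycin and 3 naive, was measured on whole-transcript Affymetrix arrays. The authors deposited log2 signals, 65770 rows by 6 arrays, made with the R package oligo per the submitters' processing notes; oligo's version, any normalization or centring, and the build were not stated there. The log2 scale was read from the values (3.01 to 14.6). The platform annotation gives 1 symbol for 30439 rows, several for 2146 and none for 33185; 827 symbols were updated through Entrez IDs with RefSeq (GRCm38.p6). Background is the 95th percentile of 1561 chemosensory receptor genes.

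Ionomycin minus naive was fitted in limma 3.58.1 (R 4.3.3, lmFit and eBayes, two-sided) over 30102 genes, without a block or a filter. The same fit was tried on simulated data with independent noise in each array. Those data lack the replicate 1 pattern, so they do not show how the fit behaves with it. The number of arrays limits precision. Replicate numbers come from the titles: deviations from the group means correlated at 0.711, 0.476 and 0.469 across genes for numbers 1, 2 and 3, and numbers 2 and 3 crossed gave 0.481 and 0.524. The reported p-values come from the fit without a block; the blocked fit is quoted where a call changes with it.

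The genes, lists and settings were chosen with earlier results of these data known. Named genes are the 10 above, all pathway control genes, Slc3a2, every mu class gene and, from each other list, up to 4 called genes or else the brightest until 2 were named, plus the 3 genes most like Gstm1. The fit was repeated with each array left out, with the replicate block, with array weights, after quantile normalization or centring, over genes above background, over all rows, with rows of a gene averaged, and with a trended and robust eBayes prior.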

Additional observations from a re-analysis of the deposited data

How the results depend on the processing

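Over all genes, 87 higher and 18 lower became 2240 and 1654 with array weights. Without both replicate 1 arrays they were 423 and 429, and with a block of 2 levels (replicate 1 against the rest) 677 and 744, both settings chosen after seeing the data. The lower count was 33 with the replicate block, 32 with centring and 9 with eBayes trend and robust settings. Leaving out ionomycin replicates 1, 2 and 3 gave 35, 1 and 7 higher and 0 lower each time, and leaving out naive replicates 1, 2 and 3 gave 95, 13 and 8 higher and 55, 0 and 1 lower. Of the 9 genes described, 1 was higher and 0 lower, with 1 lower at an unadjusted p under 0.05. The higher count was 2 with quantile normalization (Gstm1 and Txnrd1), 3 with array weights (with Srxn1), 3 without both replicate 1 arrays and 2 with the block of 2 levels. Without 1 array it was 0 or 1. The lower count was 1 with array weights (Gsr), 2 without both replicate 1 arrays, 1 with the block of 2 levels (Gsr) and 0 without any 1 array. All 9 kept their direction in the 14 refits other than those chosen after seeing the data. The replicate block changed the calls of Gstm3 (limma adjusted p = 0.0330) and Gstt1 (0.0557) and no other among the 43 named genes.

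Of the differences near 0, 5 genes changed sign, none of them called. Akr1a1 was at -0.050 with quantile normalization, -0.043 with centring, -0.039 with array weights and -0.037 without both replicate 1 arrays, and between -0.043 and 0.057 without 1 array. Ftl1 was at -0.013 with centring and between -0.0079 and 0.099 without 1 array. Hpgds was at 0.019 without both replicate 1 arrays and between -0.19 and 0.089 without 1 array. Without 1 array Fth1 lay between -0.036 and 0.019 and Mafg between -0.059 and 0.022. Over all genes the median difference of 0.05 was 0.01 with quantile normalization and -0.01 with centring. The cause of these changes was not tested. With fewer arrays the fit has fewer degrees of freedom, and 3 arrays a group limit what can be called.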

Other observations

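Of the antioxidant lists, the genes with the largest differences that did not pass were Nox1 and Tfrc, named here after their values were seen. Tfrc, the transferrin receptor that brings iron into the cell, was at 10.20, 10.03 and 10.06 in ionomycin replicates 1, 2 and 3, against 9.48, 8.71 and 8.93 in naive replicates 1, 2 and 3. The groups did not overlap, and the log2 difference was 1.06 ± 0.19 SE (limma adjusted p = 0.109, 0.0662 with the replicate block, and 0.00606 without both replicate 1 arrays). Nox1, a superoxide-making oxidase best known from the colon, was at 8.31, 6.81 and 6.69 in ionomycin replicates 1, 2 and 3, against 5.87, 5.60 and 5.66 in naive replicates 1, 2 and 3, where it lay below the background level of 6.04. Its difference was 1.56 ± 0.42 SE (limma adjusted p = 0.215, 0.101 with the block, and 0.00416 without both replicate 1 arrays). Cbr1, a carbonyl reductase also named after its values were seen, was lower without overlap, as 7.31% of all genes were. It was at 8.61, 8.27 and 8.24 in ionomycin arrays and 9.04, 9.07 and 8.82 in naive arrays. The log2 difference was -0.60 ± 0.12 SE (limma adjusted p = 0.134, 0.0779 with the block, and 0.0296 without both replicate 1 arrays).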
